A study of Mus musculus with 18 samples.

Results

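The 38 genes described here encode enzymes, or members of enzyme families, that take a methyl group from S-adenosyl methionine (SAM) and pass it to DNA, to histone lysines or to protein arginines. They were listed by name and function, with earlier results of these data known, from the 55487 genes of the count table. All 38 held reads and passed the filter on low counts, which left 13469 genes for testing. They comprise 3 DNA methyltransferases, 2 H3K27, 6 H3K9, 8 H3K4 and MLL family and 5 H3K36 methyltransferases. A further 2 genes act on H3K79 or H4K20, 5 belong to other SET and SMYD proteins, and 7 are protein arginine methyltransferases.

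The cells were im-TEC, a mouse kidney tubular epithelial line that is conditionally immortalised by SV40 large T antigen and was kept under restrictive conditions before the experiment. Polyadenylated RNA was read with QuantSeq, a method that places reads near the 3′ end of each transcript. There were 6 groups of 3 libraries, each harvested after 48 h. The cells received no addition (control), 1 mM nicotinamide (NAM) or 0.5 mM SAM, and each of these was also combined with transforming growth factor β (TGFβ) at 10 ng/mL. All groups therefore share 1 cell line and its transgene, and the labels do not say whether replicates came from separate cultures, so each p-value measures the spread between these libraries, which may be technical.

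SAM is the methyl donor of nearly all methyltransferases, and each transfer leaves S-adenosyl homocysteine, which inhibits the same enzymes until it is hydrolysed. DNA methyltransferases copy or newly set cytosine methylation. Histone lysine methyltransferases, most of them built on a SET domain, write marks linked to silencing (H3K9, H3K27), to active promoters and enhancers (H3K4) or to transcribed gene bodies (H3K36, H3K79), and arginine methyltransferases modify histones, splicing factors and signalling proteins. In kidney epithelium, TGFβ is a driver of dedifferentiation and matrix production, and NAM is the methyl acceptor of Nnmt, an enzyme that also consumes SAM. The series title names NNMT and supplementation with NAM and SAM, and the comparisons below ask how transcript levels of the methyltransferases differed with each supplement and with TGFβ.

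Libraries held 4171170 to 7717626 reads in genes. Of 13 epithelial and tubular markers, 11 held reads. Epcam and Umod were at 0, and Cdh1 and Slc34a1 stayed below 1 CPM (reads scaled to a common library size), while Cdh16, Pax8, Aqp1 and Lrp2 were read in every library. Summed epithelial and tubular marker levels were 1647 to 1720 CPM in control, 624 to 690 CPM with TGFβ, 1827 to 1890 CPM with SAM and 595 to 686 CPM with both. With NAM they were 1898 to 2026 CPM, above the SAM range, and with TGFβ and NAM 658 to 682 CPM. Of 7 tested epithelial and tubular markers, TGFβ against control lowered 4 and raised 1, Krt8 (99.2 to 189 CPM in the mean). The average SAM effect lowered 3 and raised 0, but SAM alone lowered 2 and raised 1, and SAM under TGFβ lowered 1 and raised 0. The difference between these 2 SAM effects passed as higher for 2 and as lower for 1. Among all genes tested, TGFβ lowered 9.74% and raised 9.70%, and the average SAM effect lowered 10.1% and raised 8.20%. SAM alone lowered 6.79% and raised 5.02%, SAM under TGFβ lowered 4.25% and raised 3.07%, and the difference passed for 1.43%. For 5 detected fibroblast markers the sums were 6.71 to 8.60 CPM in control, 124 to 134 CPM with TGFβ, 2.65 to 3.19 CPM with SAM and 67.4 to 78.2 CPM with both. The part of these shifts in the SAM and TGFβ results below was not tested. In bulk RNA, fewer cells of a type and less RNA per cell cannot be told apart. The treatment tags of SAM replicates 2 and 3 (DIM. and LUN.) go against their titles. SAM results of the methyltransferases and counts over all genes were therefore also computed without both libraries, which leaves a single library with SAM alone. The marker lists and the other gene lists were not rerun in this way. On the third principal component, the libraries NAM replicate 3 and TGFβ+NAM replicate 1 lay away from the others. The library numbers of the 6 SAM libraries form a block of their own, so SAM and that block cannot be told apart, whereas each TGFβ comparison lies within a block.

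SAM moved 13 of the 38 genes when its effect was averaged over cells without and with TGFβ. 8 rose (Dnmt3a, Ezh1, Ehmt1, Ehmt2, Kmt2d, Setd1b, Nsd2 and Prmt6) and 5 fell (Setdb2, Setd7, Kmt5a, Smyd2 and Prmt5). Among all genes tested, 18.3% passed in this comparison (8.20% higher and 10.1% lower), and among those with a mean of at least 15 CPM, where 35 of the 38 lie, 25.4% passed. The median fitted log2 change was 0.08 over the 38 genes and -0.01 over all genes. Passing required an adjusted p under 0.05 from edgeR's quasi-likelihood test with Benjamini-Hochberg adjustment over all 13469 genes. Fold changes are fitted log2 values ± SE, and levels are CPM with n = 3 libraries a group. Apart from Setdb2, the fitted changes among the 13 ran from -0.51 to 0.41 on the log2 scale. Without SAM replicates 2 and 3, 4 of the 13 still passed: Ezh1, Setd1b, Smyd2 and Prmt6.

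**Figure D1:**
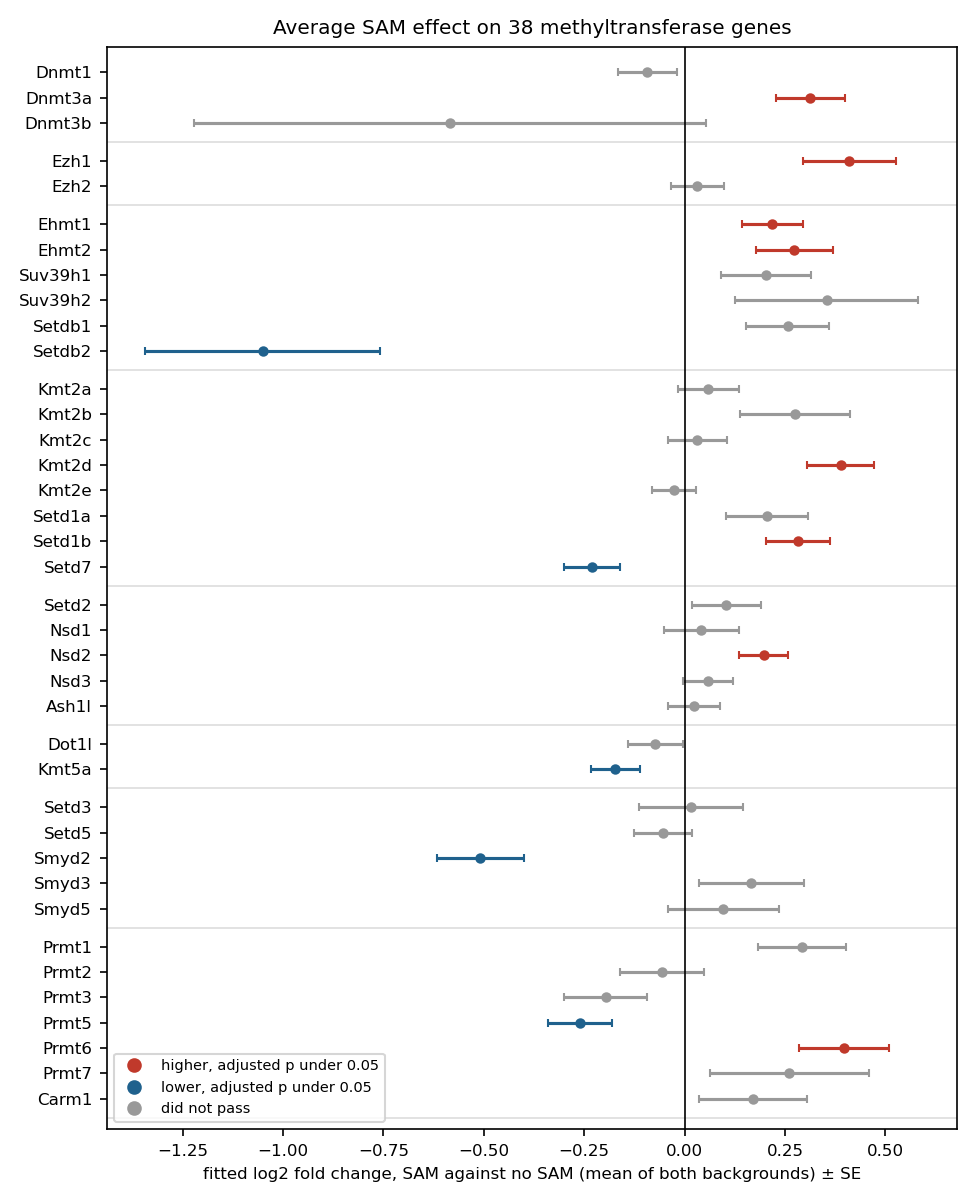
Fitted log2 fold change (points) ± SE (bars) of the average SAM effect for the 38 genes, ordered by class from DNA methyltransferases at the top to arginine methyltransferases at the bottom. The 8 genes that passed as higher are red, the 5 that passed as lower are blue, and Setdb2 and Dnmt3b, the least read of the list, have the longest bars.

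SAM alone against control called 7 genes, 4 higher (Ezh1, Kmt2d, Setd1b, Prmt6) and 3 lower (Setdb2, Setd7, Smyd2), where 11.8% of all genes were called (5.02% higher, 6.79% lower, and 17.1% of genes at 15 CPM or more). The 3 SAM libraries lay wholly above or below the 3 control libraries for 17 of the 38 genes, and for 31.6% of all genes. In cells that also received TGFβ, SAM called 2 genes, Ehmt1 as higher and Smyd2 as lower, where 7.32% of all genes were called (3.07% higher, 4.25% lower, and 10.5% of genes at 15 CPM or more). Libraries did not overlap there for 9 genes, against 23.1% of all genes. Over both backgrounds together, all 6 SAM libraries lay on 1 side of all 6 control and TGFβ libraries for Dnmt3a, Kmt2d and Smyd2, 3 of 38 genes, and for 3.84% of all genes. The 2 SAM contrasts share no library. They had the same sign for 29 of the 38 genes (20 above 0 in both and 9 below), or 76.3%, and for 64.9% of all genes tested. The test of the difference between the contrasts, the interaction, called none of the 38 genes with edgeR, where 1.43% of all genes passed. 3 of the 38 had an unadjusted p under 0.05 in it, and DESeq2 called 0 as well.

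**Figure D2:**
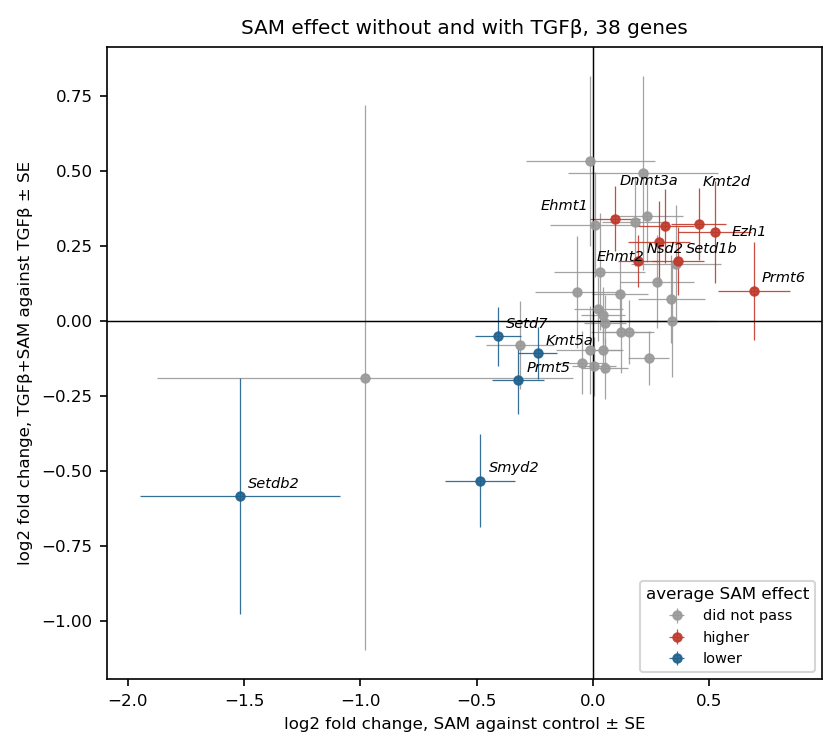
Each of the 38 genes by its log2 fold change with SAM in cells without TGFβ (horizontal axis) and with TGFβ (vertical axis), ± SE. Coloured points passed in the average SAM effect. Smyd2 lies near -0.5 on both axes, while Prmt6 and Setd7 lie far from 0 on the horizontal axis only.

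Among the DNA methyltransferases, Dnmt3a, which sets new cytosine methylation, rose with SAM. Gene positions are those of GENCODE M21 on GRCm38, and Dnmt3a lies at chr12:3806007-3914443. It measured 96.4, 79.8 and 89.9 CPM in control, 101, 119 and 111 CPM with SAM, 82.4, 78.1 and 98.1 CPM with TGFβ, and 110, 109 and 103 CPM with TGFβ and SAM. All 6 SAM libraries were above all 6 control and TGFβ libraries, and TGFβ+NAM replicate 2, at 104 CPM, lay within their range. The average log2 change was 0.31 ± 0.09 (adjusted p = 0.00846). It was 0.31 without TGFβ and 0.32 with it, and neither contrast passed on its own in the main fit (adjusted p = 0.0925 and 0.120). SAM alone passed with only the compared groups in the fit (adjusted p = 0.0167). Both contrasts passed without NAM replicate 3 and TGFβ+NAM replicate 1 (adjusted p = 0.0352 and 0.0369). Without SAM replicates 2 and 3 the average was 0.26 and no longer passed (adjusted p = 0.132). Dnmt1, which copies methylation at replication, differed by -0.09 with SAM (95% interval -0.25 to 0.07), from group means of 195 ± 10.1 CPM in control and 189 ± 8.06 CPM with SAM. Its 3 TGFβ libraries (222 to 240 CPM) lay above the 3 control libraries (188 to 207 CPM), but the log2 change of 0.23 did not pass (adjusted p = 0.121). Dnmt3b, the second de novo enzyme, was close to the limit of detection, with 1 to 23 reads in a library, and its interval for the average SAM effect ran from -1.97 to 0.80.

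Ezh1 and Ezh2 are the alternative catalytic subunits of Polycomb repressive complex 2, which methylates H3K27. Ezh1 lies at chr11:101191115-101226463 and Ezh2 at chr6:47530139-47595341 (both on the minus strand), and the 2 transcripts moved in opposite directions with TGFβ. Their start regions are printed for that reason, 150 bases before to 12 after the RefSeq start (GRCm38.p6, minus strand). They cover chr6:47595019-47595180 for Ezh2 and chr11:101226452-101226613 for Ezh1. Capitals mark letters of an E2F-type site on either strand, the motif class known from cell cycle promoters. The letters searched were TTTGGCG and the related forms TTTCCCG, then also TTTCGCG, and finally TTTGCCG. No matches overlapped in the printed stretches.
Ezh2: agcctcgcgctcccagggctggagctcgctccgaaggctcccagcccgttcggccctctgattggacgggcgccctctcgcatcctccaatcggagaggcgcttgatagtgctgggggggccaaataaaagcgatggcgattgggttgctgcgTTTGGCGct
Ezh1: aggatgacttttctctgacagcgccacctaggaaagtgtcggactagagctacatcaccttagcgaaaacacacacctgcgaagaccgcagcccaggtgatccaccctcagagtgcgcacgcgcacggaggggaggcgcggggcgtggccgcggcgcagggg
Ezh2 holds 1 such match, at position 4 after the start, and the printed Ezh1 stretch holds 0. A match describes letters only. In windows of 250 bases before to 50 after the start, 29 of the 38 genes were found in the RefSeq table, with 38 windows. 6 of these windows, 1 each of Dnmt1, Ezh2, Ehmt1, Suv39h1, Kmt5a and Prmt6, held such letters, as did 6.7% of 32851 windows of all genes. CG pairs numbered 31 in the full window of Ezh2 and 23 in that of Ezh1, and the median was 29.5 over windows of the listed genes and 7 over all windows.

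Ezh1 was raised by SAM and lowered by TGFβ. It measured 30.5, 30.1 and 31.5 CPM in control, 49.6, 39.8 and 43.1 CPM with SAM, 19.4, 22.4 and 21.1 CPM with TGFβ, and 26.2, 25.1 and 26.0 CPM with both. The groups did not overlap in any of these 4 pairings of SAM or TGFβ with its own reference. With NAM it measured 35.35, 37.21 and 39.83 CPM, above every control library, and the highest of these lay within the SAM range. The comparison of NAM with control did not pass for Ezh1. The average SAM change was 0.41 ± 0.12 (adjusted p = 0.0101), with 0.52 without TGFβ (adjusted p = 0.0235) and 0.30 with TGFβ (adjusted p = 0.337). The average call held under all 28 alternatives run, with a range of 0.30 to 0.50. SAM alone against control lost its call in 6 of 27, among them without SAM replicate 1 (adjusted p = 0.146), the library with the highest level.

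With TGFβ, Ezh1 changed by -0.55 ± 0.17 (adjusted p = 0.0147), by -0.78 on SAM (adjusted p = 0.000206) and by -0.68 on NAM (adjusted p = 0.00151). Without TGFβ replicate 1 the first of these did not pass (-0.49, adjusted p = 0.0766). Ezh2 measured 253, 259 and 251 CPM in control and 312, 322 and 360 CPM with TGFβ, with no overlap. It rose by 0.38 ± 0.09 (adjusted p = 0.0024), and by 0.36 on SAM and 0.41 on NAM. With SAM it differed by 0.03 on average (95% interval -0.11 to 0.18). The log2 ratio of Ezh2 to Ezh1 reads within a library was 2.99 to 3.10 in control, 3.84 to 4.08 with TGFβ, 2.32 to 2.90 with SAM and 3.58 to 3.76 with both. Every TGFβ library was therefore above every library without it in this ratio. The ratio compares reads and not molecules per length.

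**Figure D3:**
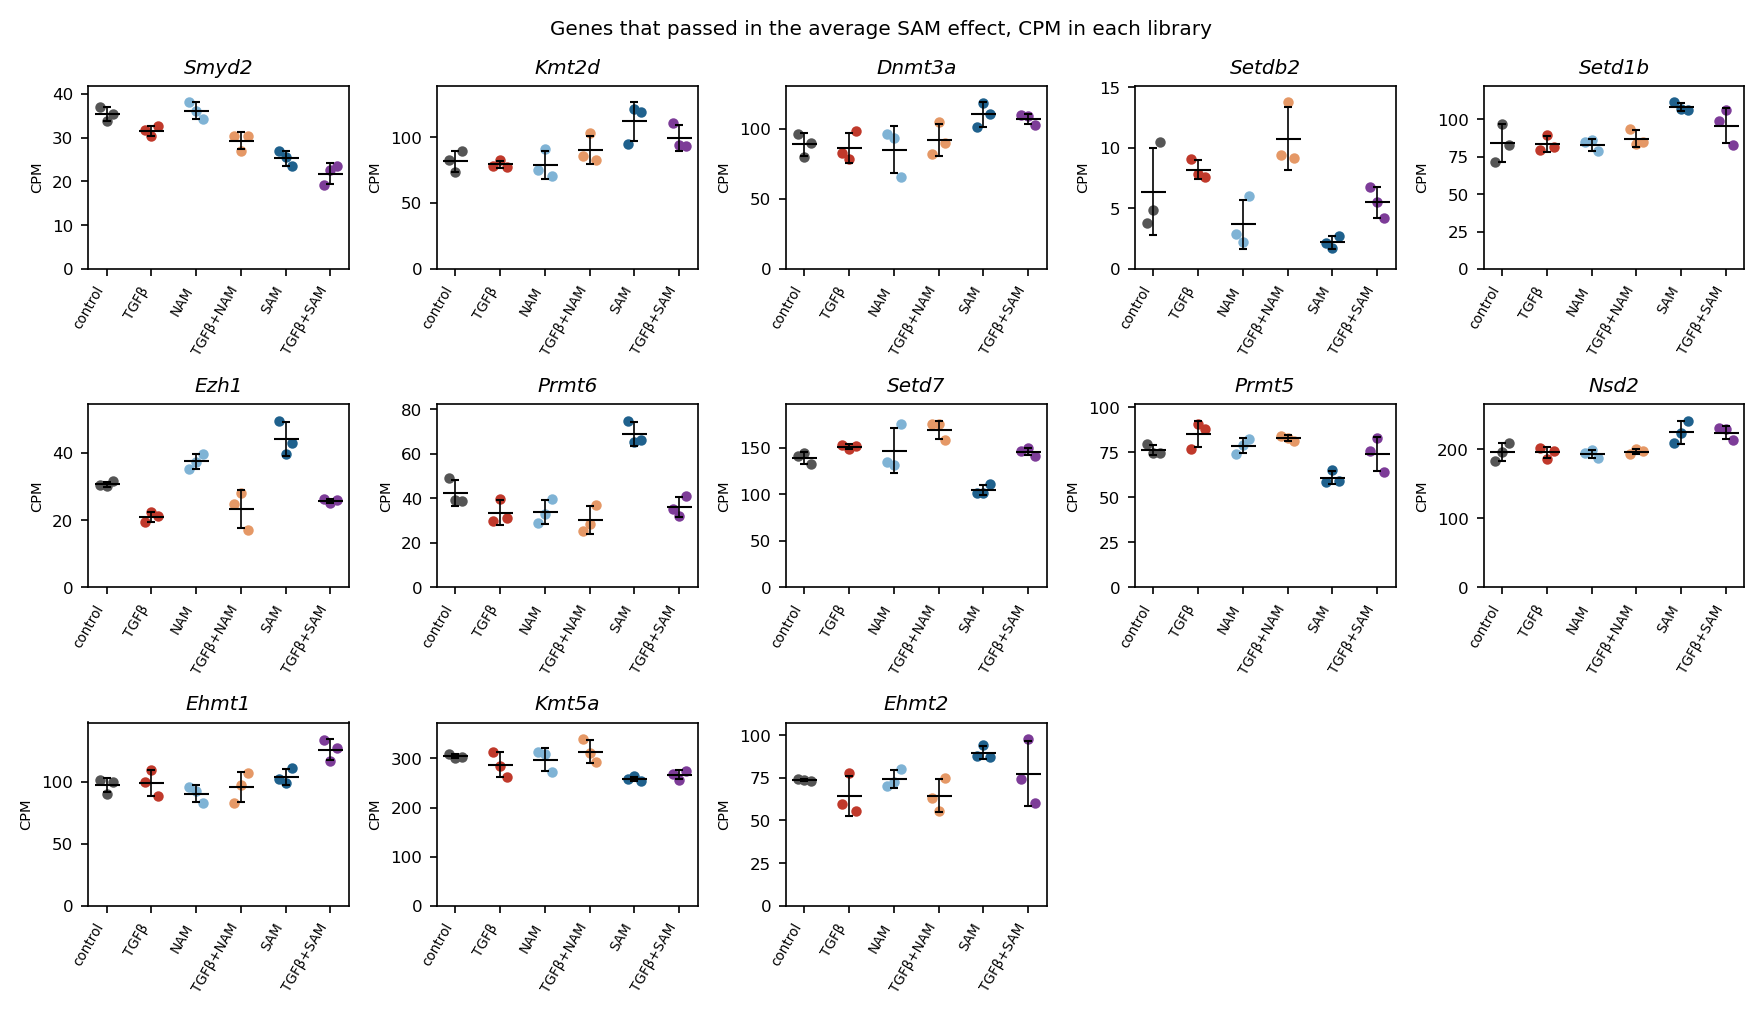
CPM in every library (points) with the group mean and SD (bars), linear axes from 0, for the 13 genes that passed in the average SAM effect, ordered by p. In Smyd2 the 6 SAM libraries sit at 19.1 to 26.9 CPM, below every other library, and in Prmt6 the 3 libraries with SAM alone sit at 65.1 to 74.8 CPM, above all the rest.

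H3K9 methylation marks repressed chromatin. Ehmt1 and Ehmt2 form the heterodimer that sets mono- and dimethylation, Suv39h1, Suv39h2 and Setdb1 set trimethylation, and Setdb2 is a further SET domain member of the family. 2 of the 6 rose with SAM, 1 fell and 3 did not pass. Setdb2 gave the lowest fitted value of the list, on 11 to 86 reads a library. It measured 3.80, 4.85 and 10.5 CPM in control, 2.12, 1.72 and 2.75 CPM with SAM, 9.09, 7.84 and 7.61 CPM with TGFβ, and 6.72, 5.54 and 4.18 CPM with both. SAM libraries were lower than their reference in each background, and control replicate 3 was far above the other control libraries. The average change was -1.05 ± 0.29 (adjusted p = 0.00865), -1.52 without TGFβ (adjusted p = 0.0149) and -0.58 with it (adjusted p = 0.440). Without control replicate 3 the average was -0.78 and did not pass (adjusted p = 0.0693), nor did it without SAM replicates 2 and 3 (-1.07, adjusted p = 0.0565). SAM alone also lost its call without control replicate 3 (-0.99, adjusted p = 0.201) or SAM replicate 2 (-1.37, adjusted p = 0.0671). The same held without SAM replicates 2 and 3 together (-1.565), which leaves a single library with SAM alone.

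Ehmt1 measured 101, 90.5 and 99.8 CPM in control and 102, 98.8 and 111 CPM with SAM, which overlap. It measured 99.6, 109 and 88.3 CPM with TGFβ and 134, 117 and 127 CPM with TGFβ and SAM, which do not. On average Ehmt1 rose by 0.22 ± 0.08 (adjusted p = 0.0392), from 0.10 without TGFβ and 0.34 with it (adjusted p = 0.0428). The latter call ended under 14 of 27 alternatives, with 0.237 as the largest adjusted p, without TGFβ replicate 3. Ehmt2 measured 74.2, 73.8 and 73.0 CPM in control and 88.0, 94.0 and 87.1 CPM with SAM, without overlap. With TGFβ it measured 59.4, 77.5 and 55.7 CPM, and with both 74.3, 97.6 and 60.4 CPM, with overlap. Its average change was 0.27 ± 0.10 (adjusted p = 0.0430). Both average calls were close to the threshold: that of Ehmt1 ended under 12 of 28 alternatives and that of Ehmt2 under 14. The lowest value for Ehmt2 was 0.17 without TGFβ+SAM replicate 2 (adjusted p = 0.245), and Ehmt1 had its largest adjusted p of 0.171 without SAM replicates 2 and 3.

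Suv39h1 rose with TGFβ. It measured 25.9, 28.8 and 22.8 CPM in control and 45.9, 41.7 and 36.1 CPM with TGFβ, and the groups did not overlap. The change was 0.68 ± 0.16 (adjusted p = 0.00136). On SAM it was 0.53 (adjusted p = 0.00769) and on NAM 0.17 (adjusted p = 0.509), and the interaction of NAM with TGFβ did not pass for it (-0.51 ± 0.22, unadjusted p = 0.0292, adjusted p = 1). The SAM-background call ended without SAM replicate 2 (0.43, adjusted p = 0.0653). It also ended without both SAM libraries whose tags conflict with their titles (0.58), a fit that leaves a single library with SAM alone. Setdb2 did not pass with TGFβ alone (0.38, adjusted p = 0.583), but TGFβ raised it on SAM by 1.31 (adjusted p = 0.0198) and on NAM by 1.55 (adjusted p = 0.00306). The call on SAM ended without SAM replicate 1, SAM replicate 2 or TGFβ+SAM replicate 1 (1.14 to 1.30, adjusted p = 0.0538, 0.0795 and 0.0783). It also ended with only the compared groups in the fit (1.308, adjusted p = 0.06535). The same held without both SAM libraries with conflicting tags (1.358), where again a single library with SAM alone remains. The interactions with TGFβ were 0.94 for SAM and 1.17 for NAM, and neither passed (adjusted p = 0.616 and 1). Setdb1 differed with SAM by 0.26 on average (adjusted p = 0.0797), and passed with all groups without SAM as the reference (0.27, adjusted p = 0.0226). Suv39h2, at 4.22 to 10.1 CPM, differed by 0.35 with an interval of -0.14 to 0.85.

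The H3K4 group holds the MLL proteins Kmt2a to Kmt2e, the SET1 enzymes Setd1a and Setd1b, and Setd7, which also methylates proteins other than histones. Kmt2d, which with Kmt2c is the main writer of H3K4 monomethylation at enhancers, gave the smallest p of the genes that SAM raised. Its start region is shown for that reason, in the same layout and all in lower case because no motif match fell in it (chr15:98871194-98871355, GRCm38.p6, minus strand).
Kmt2d: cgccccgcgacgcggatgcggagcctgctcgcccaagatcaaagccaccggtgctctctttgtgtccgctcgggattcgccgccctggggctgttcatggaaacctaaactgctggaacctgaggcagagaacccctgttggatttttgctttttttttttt
Its full window held 27 CG pairs, near the median of the listed genes.

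Kmt2d measured 82.3, 73.4 and 89.2 CPM in control, 94.9, 122 and 119 CPM with SAM, 78.2, 82.4 and 77.0 CPM with TGFβ, and 111, 94.2 and 93.1 CPM with both. The 6 SAM libraries were all above the 6 control and TGFβ libraries, although TGFβ+NAM replicate 2, at 103 CPM, lay within the SAM range. The rise averaged 0.39 ± 0.08 (adjusted p = 0.000722). It was 0.45 without TGFβ (adjusted p = 0.00749) and 0.32 with it (adjusted p = 0.0946). Without SAM replicates 2 and 3, the 2 highest libraries, the average was 0.27 and the value without TGFβ 0.22, and neither passed (adjusted p = 0.0793 and 0.567). The latter also did not pass without control replicate 2 (0.38, adjusted p = 0.0750) or SAM replicate 2 (0.39, adjusted p = 0.0592). Setd1b measured 71.6, 97.2 and 83.2 CPM in control and 112, 107 and 106 CPM with SAM, without overlap. It measured 79.4, 89.6 and 81.2 CPM with TGFβ and 98.7, 106 and 82.8 CPM with both, where TGFβ+SAM replicate 3 fell within the TGFβ range. The average change was 0.28 ± 0.08 (adjusted p = 0.00992), and without control replicate 1 it was 0.23 and did not pass (adjusted p = 0.0561). SAM alone gave 0.37 (adjusted p = 0.0253), a call that ended under 6 of 27 alternatives, with 0.26 and the largest adjusted p of 0.219 without control replicate 1.

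Setd7 moved the other way. It measured 141, 144 and 132 CPM in control and 102, 102 and 111 CPM with SAM, with no overlap, and 153, 149 and 152 CPM with TGFβ against 147, 150 and 142 CPM with both, with overlap. Averaged over both backgrounds, the change was -0.23 ± 0.07 (adjusted p = 0.0173). It was -0.41 without TGFβ (adjusted p = 0.00409) and -0.05 with it (adjusted p = 0.842), and their difference of 0.36 ± 0.14 did not pass (unadjusted p = 0.0143, adjusted p = 0.275). TGFβ raised Setd7 on the SAM background by 0.48 (adjusted p = 0.000217), and without SAM the change was 0.12 (adjusted p = 0.467). On NAM it was 0.20 (adjusted p = 0.140), and it passed without NAM replicate 3 (0.35, adjusted p = 0.0083). Without SAM replicates 2 and 3, the average SAM change was -0.25 and the change with SAM alone was -0.45. Neither passed in that fit, which holds a single library with SAM alone. Of the other 5 genes in the group, none passed with SAM. Their average changes ran from -0.03 for Kmt2e (95% interval -0.14 to 0.09) to 0.27 for Kmt2b (-0.02 to 0.57), with 0.06 for Kmt2a, 0.03 for Kmt2c and 0.21 for Setd1a.

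Kmt2e, a MLL family member without clear methyltransferase activity of its own, fell with TGFβ on every background. It measured 510, 498 and 480 CPM in control, 389, 359 and 351 CPM with TGFβ, 536, 490 and 509 CPM with SAM, and 356, 335 and 338 CPM with both. TGFβ libraries were all below the libraries without TGFβ. The changes were -0.44 ± 0.08 (adjusted p = 2.86e-05), -0.58 on SAM (adjusted p = 9.71e-08) and -0.48 on NAM (adjusted p = 5e-06). The last 500 bases of Kmt2e lie opposite Srpk2, and the strand setting of the counting is not given, so its level is uncertain. Srpk2 differed by 0.21 with TGFβ (adjusted p = 0.0842) and rose by 0.26 on NAM (adjusted p = 0.0236), the opposite sign to Kmt2e. On SAM it differed by -0.04 (adjusted p = 0.802), the same sign. Kmt2c, the partner enzyme of Kmt2d, fell with TGFβ on NAM by 0.30 on the log2 scale (adjusted p = 0.0349) and was not called on the other backgrounds. That call ended under 5 of 27 alternatives. The value was -0.20 without NAM replicate 1 (adjusted p = 0.272), and it also did not pass without NAM replicate 2 (0.0509), TGFβ+NAM replicate 1 (0.0808) or TGFβ+NAM replicate 3 (0.152), or with only the compared groups in the fit (0.0698).

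H3K36 is methylated by Setd2, which sets the trimethyl mark along transcribed genes, and by Nsd1, Nsd2, Nsd3 and Ash1l, which set lower states. Nsd2 alone passed with SAM among the 5, as higher. It measured 183, 196 and 209 CPM in control and 209, 223 and 242 CPM with SAM, which overlap, and 202, 186 and 198 CPM with TGFβ against 231, 229 and 213 CPM with both, which do not. The 3′ end of Nsd2 overlaps Nelfa by 60 bases, and Nelfa was not called in the average SAM effect (adjusted p = 0.990). Nsd2 rose by 0.20 ± 0.06 on average (adjusted p = 0.0186). It lost its call without control replicate 1 (adjusted p = 0.0754), TGFβ replicate 2 (0.0540), SAM replicate 3 (0.0744) and SAM replicates 2 and 3 together (0.241). Nsd3 measured 137, 143 and 137 CPM in control and 172, 164 and 191 CPM with TGFβ, with no overlap, and rose by 0.34 ± 0.09 (adjusted p = 0.00485). On SAM the TGFβ change was -0.03 (adjusted p = 0.867), from 164, 158 and 170 CPM with SAM and 158, 166 and 159 CPM with both. The difference between these TGFβ changes was -0.36 ± 0.13, the smallest p of the list in the interaction (unadjusted p = 0.00645), and did not pass (adjusted p = 0.188). Setd2, Nsd1 and Ash1l differed by 0.10, 0.04 and 0.02 with SAM, and the interval for Ash1l was -0.12 to 0.16.

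Dot1l is the H3K79 methyltransferase and Kmt5a the H4K20 monomethyltransferase, whose level is tied to the cell cycle. Kmt5a measured 310, 301 and 304 CPM in control, 257, 264 and 255 CPM with SAM, 313, 285 and 263 CPM with TGFβ, and 268, 257 and 275 CPM with both. SAM and control did not overlap, while the TGFβ groups did. SAM alone against control did not pass in the main fit. It passed with DESeq2 (-0.24, adjusted p = 0.0177), with library totals without TMM (-0.26, 0.0493) and with only the compared groups in the fit (-0.24, 0.00251). Kmt5a changed by -0.17 ± 0.06 on average (adjusted p = 0.0407), and the call ended under 12 of 28 alternatives, with 0.171 as the largest adjusted p. Dot1l differed by -0.07 with SAM (95% interval -0.22 to 0.08) and fell with TGFβ on the SAM background by 0.27 on the log2 scale (adjusted p = 0.0345). That call ended under 4 of 27 alternatives. The value was -0.16 without SAM replicate 2 (adjusted p = 0.297), -0.14 without SAM replicates 2 and 3 (0.574), -0.24 without TGFβ+SAM replicate 1 (0.108) and -0.23 without TGFβ+SAM replicate 2 (0.134).

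Smyd2, a lysine methyltransferase of histones and of proteins such as p53, was the only gene of the 38 that passed in each SAM contrast. It lies at chr1:189880492-189922363. It measured 37.0, 33.8 and 35.4 CPM in control, 26.9, 25.6 and 23.4 CPM with SAM, 31.6, 30.4 and 32.6 CPM with TGFβ, and 19.1, 22.6 and 23.6 CPM with both. Each SAM library was below every library without SAM, the 6 NAM libraries (27.04 to 38.1 CPM) included. The average change was -0.51 ± 0.11 (adjusted p = 0.000606), with -0.49 without TGFβ (adjusted p = 0.0278) and -0.53 with it (adjusted p = 0.0270). The average passed under all 28 alternatives (-0.54 to -0.46). The separate contrasts each lost their call under 7 of 27, with -0.40 (adjusted p = 0.378) for SAM alone without SAM replicates 2 and 3. The last 500 bases of Smyd2 lie opposite the antisense gene Gm37422, which held 91 reads over all libraries, against 3402 for Smyd2. As the strand setting of the counting is not given, reads there may have been set aside as ambiguous.

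Smyd3, a lysine methyltransferase with substrates in the nucleus and the cytoplasm, showed the highest change of the list in TGFβ against control. It lies at chr1:178951960-179518041. It measured 15.2, 13.3 and 16.9 CPM in control and 37.7, 29.3 and 34.1 CPM with TGFβ. With SAM it measured 11.8, 15.6 and 18.3 CPM, and with both 36.5, 45.0 and 44.8 CPM. TGFβ libraries were above their reference in each case. The changes were 1.16 ± 0.19 (adjusted p = 5.8e-06), 1.47 ± 0.18 on SAM (adjusted p = 2.43e-08) and 0.67 ± 0.18 on NAM (adjusted p = 0.00531). The last value was 0.50 and did not pass without NAM replicate 3 and TGFβ+NAM replicate 1 (adjusted p = 0.111). Interactions did not pass for SAM (0.31, adjusted p = 0.749) or NAM (-0.49, unadjusted p = 0.0675). With SAM, Smyd3 differed by 0.17 on average (95% interval -0.12 to 0.45). Setd3, an actin histidine methyltransferase, Setd5 and Smyd5 differed by 0.01, -0.05 and 0.10, and none passed.

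**Figure D4:**
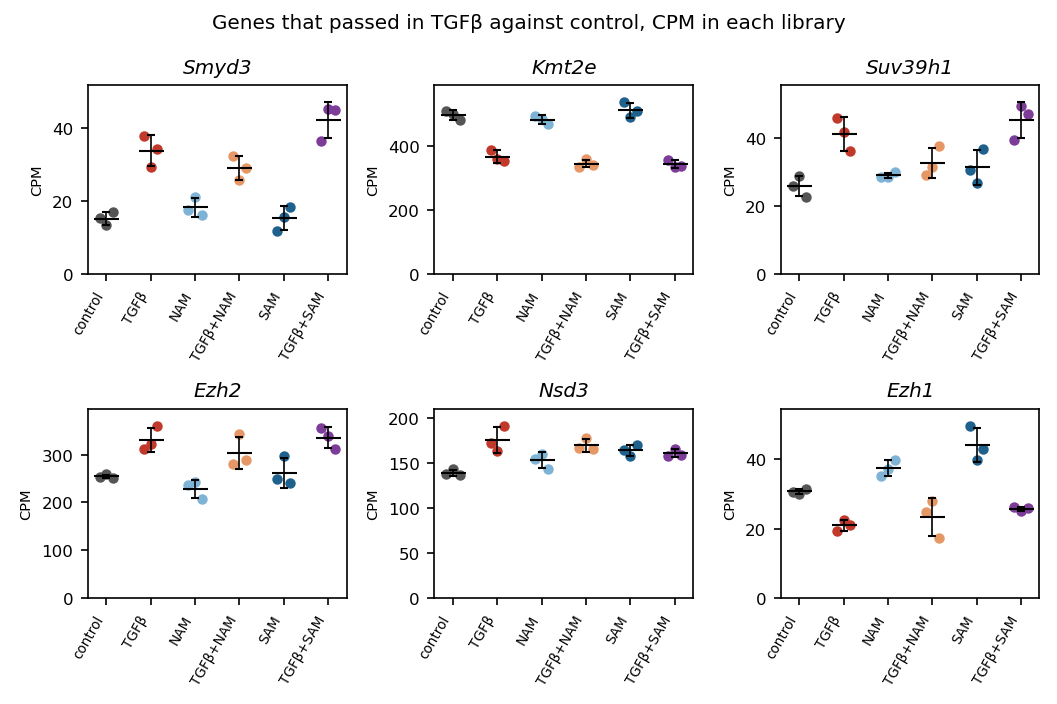
CPM in every library (points) with the group mean and SD (bars), linear axes from 0, for the 6 genes that passed in TGFβ against control. Smyd3 rises from 13.3 to 16.9 CPM in control to 29.3 to 37.7 CPM with TGFβ, and Kmt2e lies at 335 to 389 CPM in all 9 TGFβ libraries against 467 to 536 CPM in the other 9.

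Among the 7 arginine methyltransferases SAM raised Prmt6 and lowered Prmt5. Prmt6 lies at chr3:110246109-110250998 and Prmt5 at chr14:54507187-54517525. The enzyme Prmt6, which sets asymmetric dimethylation on H3R2, measured 49.3, 39.3 and 39.0 CPM in control, 74.8, 65.1 and 66.1 CPM with SAM, 29.95, 39.9 and 30.9 CPM with TGFβ, and 35.4, 31.9 and 41.1 CPM with both. The 3 libraries with SAM alone were above all 15 others, and the TGFβ groups overlapped. SAM alone changed it by 0.69 ± 0.15 (adjusted p = 0.00175), and this call held under all 27 alternatives (0.62 to 0.81). With TGFβ the SAM change was 0.10 (adjusted p = 0.800). The average was 0.40 ± 0.11 (adjusted p = 0.0101) and passed under all 28 alternatives. The interaction of -0.59 ± 0.22 did not pass (unadjusted p = 0.0122, adjusted p = 0.255). TGFβ lowered Prmt6 on SAM by 0.93 on the log2 scale (adjusted p = 9.24e-06), and without SAM the difference was -0.34 (adjusted p = 0.153).

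Prmt5, the main enzyme of symmetric arginine dimethylation, measured 79.4, 74.4 and 74.7 CPM in control, 58.7, 65.1 and 58.9 CPM with SAM, 76.7, 90.8 and 87.8 CPM with TGFβ, and 75.7, 82.9 and 64.0 CPM with both. SAM and control did not overlap, and the TGFβ groups did. Averaged, the change was -0.26 ± 0.08 (adjusted p = 0.0173). It was -0.32 without TGFβ (adjusted p = 0.0539) and -0.20 with it (adjusted p = 0.332). SAM alone against control did pass for Prmt5 with DESeq2 (adjusted p = 0.0366), with DESeq2-type size factors in edgeR (0.0491) and with library totals without TMM (0.0428). It also passed with minimum count 30 (0.0461) and with only the compared groups in the fit (0.0270). The average lost its call without TGFβ+SAM replicate 3 (-0.22, adjusted p = 0.0571) and without SAM replicates 2 and 3 (-0.28, adjusted p = 0.0665). Wdr77, the obligate partner of Prmt5 in the methylosome, fell as well in the average SAM effect, by 0.37 on the log2 scale (adjusted p = 0.00208). It measured 102, 118 and 96.0 CPM in control and 77.5, 74.5 and 67.5 CPM with SAM alone. In TGFβ+SAM against TGFβ, Wdr77 was not called as lower.

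Prmt1, the main asymmetric arginine methyltransferase, measured 70.4, 68.7 and 66.8 CPM in control and 73.4, 87.3 and 81.3 CPM with SAM, without overlap. With TGFβ it measured 78.1, 102 and 68.0 CPM and with both 113, 121 and 84.3 CPM, with overlap. The average change of 0.29 ± 0.11 did not pass (adjusted p = 0.0585), and it passed without the filter on low counts (adjusted p = 0.0101). TGFβ raised it on SAM by 0.40 (adjusted p = 0.0490) and on NAM by 0.46 (adjusted p = 0.0271). Without NAM replicate 3 the latter was 0.28 (adjusted p = 0.239), and without TGFβ+SAM replicate 2 the former was 0.29 (adjusted p = 0.239). The call on SAM ended under 12 of 27 alternatives and the call on NAM under 5 of 27. With DESeq2 neither passed (adjusted p = 0.0954 on SAM and 0.0529 on NAM). Prmt2, Prmt3, Prmt7 and Carm1, a transcriptional coactivator, differed with SAM by -0.06, -0.20, 0.26 and 0.17, and none passed. The 3′ ends of Prmt2, Prmt7, Carm1, Setdb1, Setd1a and Nsd2 overlap another gene by 29 to 247 bases. Reads there may have been set aside as ambiguous or given to the wrong gene. The overlapping genes at Prmt2 and Setd1a held 0 reads, and the one at Prmt7 held 83 over all libraries. The other neighbours were well read, with 21781 reads for Cers2 at Setdb1, 7405 for Nelfa at Nsd2 and 3581 for Yipf2 at Carm1. Setdb1, Nsd2 and Carm1 themselves held 4099, 23092 and 2576 reads. None of these neighbours was called in the average SAM effect. TGFβ lowered Cers2 on every background (-0.38 without supplement, -0.42 on NAM and -0.29 on SAM).

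TGFβ against control called 6 of the 38 genes: Ezh2, Suv39h1, Nsd3 and Smyd3 rose and Ezh1 and Kmt2e fell, where 19.4% of all genes were called (9.70% higher, 9.74% lower, and 26.1% of genes at 15 CPM or more). Libraries did not overlap for 10 of the 38 and for 36.2% of all genes. On SAM, TGFβ called 11 (7 higher and 4 lower), where 28.4% of all genes were called (14.2% in each direction, and 36.7% of genes at 15 CPM or more). Libraries did not overlap for 13 of the 38 there and for 38.9% of all genes. On NAM, TGFβ called 7 (4 higher and 3 lower), where 21.9% of all genes were called (10.9% higher, 11.0% lower, and 28.6% of genes at 15 CPM or more). Libraries did not overlap for 10 of the 38 and for 34.2% of all genes. Ezh1, Ezh2, Kmt2e and Smyd3 passed on all 3 backgrounds, and 13 genes passed on at least 1. Ehmt1 was among those called on SAM only, at 0.28, and its call ended under 13 of 27 alternatives. Among these were the fits without SAM replicate 1, 2 or 3 (adjusted p = 0.109, 0.157 and 0.0508). The TGFβ comparisons on SAM and on control share no library, but the call in 1 and not the other is no test of a difference, and no interaction passed for any of the 38 with edgeR or DESeq2. Summed levels of 30 proliferation genes were 3138 to 3258 CPM in control, 3830 to 3943 CPM with TGFβ, 2995 to 3173 CPM with SAM and 3886 to 4030 CPM with both, and 11 of the 30 rose and 0 fell with TGFβ. Their part in the changes of Ezh2 and Suv39h1 was not tested.

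**Figure D5:**
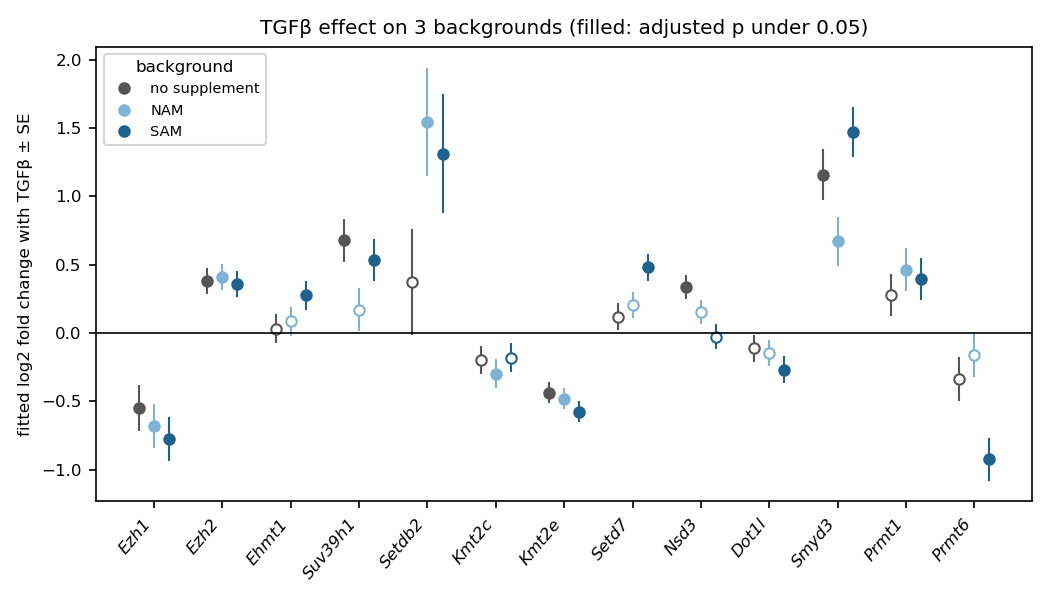
Fitted log2 change with TGFβ ± SE on 3 backgrounds (no supplement, NAM, SAM) for the 13 genes called on at least 1 of them; filled points passed and open points did not. Ezh1 and Kmt2e lie below 0 and Ezh2 and Smyd3 above 0 on every background, while Prmt6 reaches -0.93 on SAM.

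NAM called none of the 38 genes with edgeR, either against control (0.00742% of all genes) or under TGFβ (0.0817%). At an unadjusted p under 0.05 it reached 1 and 2 of them: Prmt6 against control (-0.33, adjusted p = 0.909), and Suv39h1 (-0.34) and Setd5 (-0.22) under TGFβ. DESeq2 called 0 of the 38 in each comparison. Setdb2 had the lowest fitted value with NAM, -0.78, from 2.90, 2.18 and 5.99 CPM against 3.80, 4.85 and 10.5 CPM in control, and the groups overlapped.

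The partners, erasers and readers of methyl marks, and the enzymes that supply SAM, were read as lists beside the 38 genes. Their counts in the average SAM effect stand against 18.3% of all genes called, or 25.4% of genes at 15 CPM or more. These lists were not rerun without SAM replicates 2 and 3. Of 8 tested partners of Polycomb repressive complex 2, Eed (0.33, adjusted p = 0.00275) and Suz12 (0.24, adjusted p = 0.0252), its core subunits, rose in the average SAM effect and 0 fell, and the median was 0.12. Of 12 MLL and SET1 complex partners, Men1, the menin subunit of the Kmt2a and Kmt2b complexes, rose (0.35, adjusted p = 0.0203) and 0 fell. Of 9 partners of arginine and DNA methyltransferases, 3 rose and 1, Wdr77, fell. Btg1, a binding partner of Prmt1, rose by 1.01 ± 0.10 on average over both backgrounds (adjusted p = 2.3e-10). It measured 86.8, 77.7 and 76.4 CPM in control and 169, 143 and 206 CPM with SAM alone. Uhrf2 and Atf7ip, the cofactor of Setdb1, rose by 0.32 and 0.33. Of 22 demethylases 2 rose and 2 fell, with Phf8 at 0.52, Kdm6b, which removes H3K27 methylation, at 0.46, Kdm3a, an H3K9 demethylase, at -0.31 and Riox1 at -0.38, and of 2 TET dioxygenases Tet3 rose by 0.26. Of 20 readers 2 rose and 1 fell, with Cdyl at 0.59, L3mbtl3 at 0.46 and Mbd2 at -0.48. Median changes were 0.03 for the MLL and SET1 partners, 0.05 for the arginine and DNA methyltransferase partners, 0.08 for the demethylases and 0.09 for the readers.

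Of 13 genes of SAM supply and removal, 3 rose and 2 fell with SAM, against the same 18.3% of all genes. Mat2a, the enzyme that makes SAM in most tissues, fell by 0.58 on the log2 scale (adjusted p = 2.03e-09), and Nnmt fell by 0.66 (adjusted p = 7.39e-05). Mtr, methionine synthase, rose by 0.65 (adjusted p = 6.72e-06). Ahcyl2, related to the hydrolase of S-adenosyl homocysteine, rose by 0.50 (adjusted p = 0.00141), and Mettl16, an RNA methyltransferase that acts on the Mat2a transcript, by 0.29 (adjusted p = 0.0141). The median of the list was -0.05. Of the 30 proliferation genes 1 rose with SAM, Mcm7 at 0.33, and 6 fell, Tk1 among them at -0.46 and Top2a at -0.26.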

How the data were processed

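Raw counts, whole reads per gene for 18 libraries, were used as the authors deposited them. STAR and HTSeq were used, per the submitters' processing notes, which name the build GRCh38 although all identifiers are mouse; the strand setting and tool versions are not given in the sources used here. Symbols came from GENCODE M21 (GRCm38): of 55487 genes, 55141 matched. Reads outside genes made up 22.8% to 28.2% of a library and ambiguous reads 0.607% to 0.779%, and neither was used.

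Groups came from sample titles. edgeR 4.0.16 in R 4.3.3 was run on the counts with TMM scaling and filterByExpr (minimum count 10), with all libraries in 1 quasi-likelihood fit that has 1 term for each group (12 residual degrees of freedom). The 10 contrasts were tested two-sided, with Benjamini-Hochberg adjustment over the genes of each. An exact permutation of 3 against 3 cannot give a p below 0.1. The average SAM effect is the mean of SAM against control and TGFβ+SAM against TGFβ. An interaction is the SAM (or NAM) effect with TGFβ minus that without it. The test was also run on simulated data. Alternatives were DESeq2 1.42.0, other scalings and filters, a replicate block, only the compared groups, all groups without SAM as the reference, and libraries left out. Dropping NAM replicate 3 and TGFβ+NAM replicate 1 was chosen after seeing the data.

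The 38 genes and the lists (Polycomb repressive complex 2 partners, MLL and SET1 partners, arginine and DNA methyltransferase partners, demethylases, TET dioxygenases, readers, SAM supply, proliferation, and markers of tubule, fibroblast, immune and endothelial cells) were chosen with earlier results of these data known. Genes given in every library are those called in the average SAM effect, in either SAM contrast or in TGFβ against control. Values of Wdr77, Btg1 and Prmt1 were added after they were seen. From each partner list up to 4 genes with the smallest p were named. One further marker list is not reported here.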

Additional observations from a re-analysis of the deposited data

How the results depend on the processing

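None of the values of the 38 genes changed direction among called results over 28 alternatives. Of all single-gene values, called or not, 10088 kept their side of the threshold, 145 lost a call and 53 passed newly. Most of these values were not called in the main fit and had no call to lose. The 145 losses therefore fall on the called results only, and the counts do not measure how stable a call was. Losses per call ran from 0 of 27 alternatives (Prmt6, SAM against control) to 14 of 27 (Ehmt1, TGFβ+SAM against TGFβ). Leaving out SAM replicates 2 and 3, whose tags conflict with their titles, left 466 genes called in SAM against control (1 of the 38), 1487 in the average SAM effect (4), 2258 in TGFβ+SAM against SAM (6) and 63 in the interaction of SAM with TGFβ, and 1 of the 38 in TGFβ+SAM against TGFβ; fewer samples entered these fits. With only the compared groups in the fit, 13 of the 38 were called in SAM against control (2383 of all genes, from 1591), 1 in TGFβ+SAM against TGFβ (921, from 986), and 0 genes in TGFβ+NAM against TGFβ. TGFβ+SAM against TGFβ, at 2 of the 38, gave 1 without a filter on low counts and 4 without the pair of libraries that stood apart. NAM against control rose from 1 gene to 16 with DESeq2 and 15 without the filter, and TGFβ+NAM against TGFβ from 11 to 36, 32 and, without the libraries that stood apart, 20. The cause was not tested.

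Leaving out 1 library at a time gave 1063 to 1795 genes and 3 to 9 of the 38 for SAM against control, 630 to 1153 and 0 to 2 for TGFβ+SAM against TGFβ, and 2017 to 2672 and 8 to 14 for the average, lowest for the 38 without control replicate 1. It gave 2068 to 2804 and 5 to 7 for TGFβ, 3237 to 4013 and 6 to 12 for TGFβ on SAM, 2400 to 2983 and 6 to 8 for TGFβ on NAM, 1 to 1 and 0 for NAM, 3 to 16 and 0 for TGFβ+NAM against TGFβ, and 131 to 248 and 0 for the SAM interaction. The NAM interaction stayed at 0. The labels do not say what a shared replicate number marks. Across groups, the 45 same-numbered pairs had a mean correlation of deviations of 0.00199 (-0.0997 to 0.0696). For the 90 other pairs the mean was -0.000984 (-0.127 to 0.168). Among 3 numbers, 9 of 18 libraries correlated best with their own. These values cannot settle whether a number marks a shared culture or day. With the replicate block, TGFβ+SAM against TGFβ had 1 of the 38 called. Depth limits Dnmt3b and Setdb2.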

Other observations

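Of 7 immune markers 4 held reads. Adgre1, Cd3e and Itgam were at 0. The summed level of the immune markers, nearly all of it Cd68, was 11.99 to 15.3 CPM in control, 20.6 to 34.1 CPM with SAM, and 5.72 to 8.31 CPM with TGFβ. Endothelial markers reached at most 1.38 CPM in sum, with Cdh5 and Kdr at 0. The relation of these levels to the 38 genes was not tested.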
